A study of Mus musculus with 6 samples.

Results

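The RUNX transcription factors and their shared partner were followed in cultured mouse myoblasts: Runx1, Runx2, Runx3 and Cbfb, 4 of the 54532 genes in the count table, chosen by name. RUNX proteins bind DNA through a conserved Runt domain and can activate or repress a gene, depending on the cofactors they recruit. CBFβ, the product of Cbfb, does not touch DNA itself; it joins each of the RUNX proteins and strengthens their hold on DNA. Runx1 is best known for the origin of blood stem cells, Runx2 for bone and hypertrophic cartilage, and Runx3 for T cells and sensory neurons. In skeletal muscle, Runx1 is known as a gene that is low in intact fibers and is induced by denervation and injury.

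The libraries came from primary mouse myoblasts, with 3 libraries labelled WT and 3 labelled eIF5A knockout (KO-labelled below). All were proliferating cells collected at day 2, grown with 10% serum and 10 ug/ml FGF. The study's knockout mice (Pax7 CreERT2/+; eIF5A f/f, C57BL/6j background for the floxed allele) lose eIF5A after tamoxifen in satellite cells, where Pax7 drives the Cre, and its WT controls are given as Pax7 CreERT2/+ mice in one place and as Pax7 +/+; eIF5A f/f mice in another. Which of these applies to the WT libraries is not stated. Myoblasts for translational profiling came from mice 3 weeks old. For these RNA libraries the labels give neither age nor mouse, and how the cells were isolated is not given in the sources used here. Cells that never expressed Pax7 keep the gene in this model. The study calls its bulk RNA-seq triplicate experiments, but neither it nor the labels say whether the libraries of a label came from separate mice or cultures. The p-values then measure only the spread between these libraries, which may be technical.

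Gene counts summed to between 16281216 and 17734551 in a library. Transcripts of the targeted gene, Eif5a, were at 986 to 1603 CPM in WT and at 1059 to 1459 CPM in the KO-labelled libraries (log2 fold change 0.02, adjusted p = 0.993 in edgeR), with no reduction detected, so that every direction below refers to the libraries by their labels. CPM are counts relative to the library total, adjusted by TMM factors. WT replicate 1 stood apart, with 5.75% of its counts on mitochondrial transcripts against 2.11% to 3.50% in the other 5 libraries. The markers of the labelled cell type were present: Myod1, the factor that commits cells to the myogenic lineage, ranged from 196 to 550 CPM and Pax7 from 8.29 to 51.7 CPM. Markers of other cells were present as well, since all 10 endothelial, 10 mural, 11 macrophage and 10 fibro-adipogenic markers passed the expression filter.

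The 3 Runx genes share a short sequence at their upstream promoters, printed here as the longest run common to them. Among the promoter windows of RefSeq (GRCm38.p6, 250 bases before to 50 bases after each annotated start), the distal windows of Runx1 and Runx3 and the only window of Runx2 shared a run of 18 bases. In the 30-base stretches below, written 5′ to 3′ on the strand of the gene, capitals mark that run.
Runx1, chr16:92826025-92826054, minus strand: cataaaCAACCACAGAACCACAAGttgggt
Runx2, chr17:44814583-44814612, minus strand: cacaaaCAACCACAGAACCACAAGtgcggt
Runx3, chr4:135120503-135120532, plus strand: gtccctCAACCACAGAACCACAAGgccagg

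The run holds the letters ACCACA, which read TGTGGT on the opposite strand, at 2 places that do not overlap. TGTGGT is a form of the sequence that RUNX proteins bind. In Runx1 the run lay from 27 to 44 bases after the annotated start and in Runx2 from 22 to 39 bases after it, while in Runx3 it lay from position -136 to -119, before the start. Of all 32851 promoter windows, 4 held the run on either strand, those of the 3 Runx genes and of Gm16225 on chromosome 4. TGTGGT alone was found in 16.8% of the windows on either strand, and TGCGGT, the other common form, in 6.45%. The Runx2 window held TGTGGT at another place, from position -80, and TGCGGT once, from position 40. The proximal windows of Runx1 and Runx3 and the window of Cbfb held neither hexamer. These matches describe letters and not binding, which was not measured here.

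In the GENCODE annotation of GRCm38, Runx1 (ENSMUSG00000022952) spans chr16:92601466-92826149 on the minus strand, with 12025 exonic bases in 7 transcripts. Runx2 (ENSMUSG00000039153) spans chr17:44495987-44814797, also on the minus strand, with 8837 exonic bases in 13 transcripts. On the plus strand, Runx3 (ENSMUSG00000070691) spans chr4:135120652-135177990 with 5003 exonic bases in 6 transcripts, and Cbfb (ENSMUSG00000031885) spans chr8:105170674-105217989 with 3480 exonic bases in 7 transcripts. The annotated transcript starts of Runx1 are spread over 130654 bases, those of Runx2 over 80104, those of Runx3 over 33784 and those of Cbfb over 890. The counts cover whole genes, so that transcripts from the distal and the proximal promoter cannot be told apart.

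Cbfb was the most abundant of the 4 transcripts, followed by Runx1 and Runx2, and Runx3 was close to absent. This order held in 6 of 6 libraries on the FPKM scale, which divides by the length of all annotated exons of a gene. The transcripts expressed here may be shorter, an error that all 6 libraries would share and that the test below does not cover. Cbfb stood above Runx1 by 3.996 to 11.1 times, Runx1 above Runx2 by 1.10 to 1.98 times and Runx2 above Runx3 by 33.7 to 168 times. Each step had p = 0.03125 in an exact two-sided test that permutes the sign of the log ratio within libraries (n = 6), the smallest p this test can give. Between libraries, however, Runx1 and Runx2 were not separated: the lowest Runx1 value, 2.97 FPKM, lay below 5 of the 6 Runx2 values. By mean level, 87.3% of the 14679 genes that passed the expression filter lay below Cbfb, 49.3% below Runx1, 41.4% below Runx2 and 0.272% below Runx3.

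**Figure D1:**
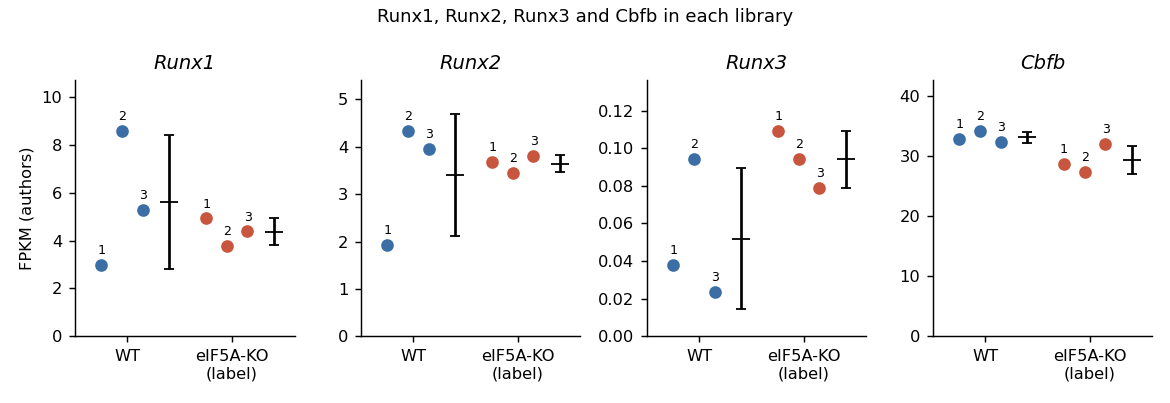
FPKM of Runx1, Runx2, Runx3 and Cbfb in each library (points, numbered by replicate; each panel has its own axis from 0), with the mean and SD of 3 libraries per genotype label (bars). The WT libraries spread from 2.97 to 8.57 FPKM for Runx1, whereas the groups do not overlap for Cbfb.

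Runx1 had the widest range of the 3 members that could be tested, and the range was that of the WT libraries. It was at 2.97, 8.57 and 5.27 FPKM in WT replicates 1 to 3 and at 4.92, 3.78 and 4.38 FPKM in the KO-labelled libraries. All 3 of the latter lay between the lowest and the highest WT library. The values rest on 562 to 1963 reads per library. Mean levels were 68.1 ± 34.1 CPM in WT (SD, n = 3) and 52.8 ± 6.97 CPM under the KO label (SD, n = 3). In edgeR this gave a log2 fold change of -0.37 with a standard error of 0.33 and an adjusted p of 0.915. Its 95% confidence interval reached from -1.10 to 0.37, and a level from 0.465 to 1.29 times that of WT lay within it. With WT replicate 2 left out, the log2 fold change turned to 0.08. With WT replicate 1 left out, it was -0.66, with an unadjusted p of 0.0108 and an adjusted p of 0.314 in edgeR; in that fit 5.44% of the tested genes were lower with an unadjusted p under 0.05.

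The ratio of the highest to the lowest WT library was 2.87 for Runx1. Of 4743 tested genes within 2-fold of its mean level, 3.65% had a ratio at least as wide, and their median ratio was 1.42. Among the KO-labelled libraries the ratio was 1.30, which 39.3% of the same genes reached. Markers of several cell types moved across the WT libraries as well. The summed FPKM of 9 myogenic markers was 250, 598 and 429 in WT replicates 1 to 3 and 384, 280 and 203 in the KO-labelled libraries. Of these 9 markers, all tested, 8 had a log2 fold change below 0 (median -0.53), and 5 did without WT replicate 2 (median -0.30). The lowest p-values were those of Myog, Chrna1 and Pax7, with log2 fold changes of -2.91, -1.62 and -1.49 (adjusted p = 0.362, 0.397 and 0.484 in edgeR). These were the 3 with an unadjusted p under 0.05 in edgeR, where 4.02% of all tested genes were lower. Of the 9, 2 were lower without overlap, Myog and Chrna1, as were 6.83% of all tested genes. For 11 macrophage markers, which belong to a lineage that also uses Runx1, the sums were 48.1, 99.98 and 47.3 FPKM in WT and 129, 99.1 and 48.1 FPKM in the KO-labelled libraries; 9 of the 11 had a log2 fold change above 0 (median 0.32), and 6 did without KO-labelled replicate 1 (median 0.0078). For 10 endothelial markers, the sums were 361, 736 and 704 FPKM in WT and 857, 642 and 883 FPKM in the KO-labelled libraries, and all 10 had a log2 fold change above 0. WT replicate 2 was the highest WT library for Runx1 and for these 3 sums. For 10 fibro-adipogenic markers its sum was the lowest, with sums of 1205, 853 and 1060 FPKM in WT and 949, 1090 and 924 FPKM in the KO-labelled libraries. That list was split: among WT libraries, Dcn, Ly6a, Lum, Dpt and Mfap5 were lowest in WT replicate 2. Pdgfra, Col1a1, Col3a1 and Gsn were highest there, and Pi16 lay between. The part of these cell types in the Runx1 values was not tested. In bulk samples, fewer cells of a type and less RNA per cell cannot be told apart.

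Runx2 had nearly the same mean level under both labels. It was at 1.93, 4.33 and 3.95 FPKM in WT replicates 1 to 3 and at 3.68, 3.45 and 3.81 FPKM in the KO-labelled libraries. WT replicate 1 lay below the other 5 libraries, which spanned 3.45 to 4.33 FPKM. Mean levels were 30.4 ± 11.4 CPM in WT (SD, n = 3) and 32.4 ± 1.59 CPM under the KO label (SD, n = 3), from 268 to 729 reads per library. In edgeR this gave a log2 fold change of 0.09 with a standard error of 0.27, a 95% confidence interval from -0.52 to 0.71 and an adjusted p of 0.976. Without WT replicate 1 it turned to -0.18. The highest WT library was 2.23 times the lowest, a ratio that 9.8% of 4918 tested genes of like level reached, while among the KO-labelled libraries the ratio was 1.10, which 89.2% reached. Of 10 osteochondral markers, the lineage that Runx2 directs, 4 passed the expression filter. Sox9, a cartilage factor also found in other cells, was at 20.5 to 49.1 CPM, and Alpl, the tissue-nonspecific alkaline phosphatase of mineralizing cells, was at 15.4 to 30.2 CPM. Dmp1, a bone matrix gene, reached 14.1 CPM in WT replicate 2, and Col2a1, a cartilage collagen, did not exceed 1.49 CPM. The other 6 did not pass the filter. Sp7, the factor that acts after Runx2 in bone, did not exceed 0.490 CPM, the matrix genes Bglap and Ibsp did not exceed 0.265 and 0.0592 CPM, and Matn1, a cartilage matrix gene, had 0 counts in all 6 libraries. The summed FPKM of the 10 osteochondral markers was 10.1 to 20.0 in WT and 14.6 to 16.7 in the KO-labelled libraries. WT replicate 1 had the lowest of these sums, and also the lowest for 10 endothelial (361), 10 mural (107) and 8 glial markers (56.5 FPKM). For 10 fibro-adipogenic markers it had the highest sum (1205 FPKM). The part of these cell types in the Runx2 values was not tested.

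Runx3 was counted too rarely to be compared. It had 3, 9 and 2 reads in WT replicates 1 to 3 and 9, 8 and 7 reads in the KO-labelled libraries. Summed over libraries, these were 14 reads in WT (95% Poisson interval 7.65 to 23.5) and 24 in the KO-labelled libraries (15.4 to 35.7), and the intervals overlap. They cover counting error only. Runx3 did not pass the expression filter, and without the filter its log2 fold change was 0.63 with an adjusted p of 0.814 in edgeR. Among 11 lymphocyte markers, cells in which Runx3 is known to be high, 0 passed the filter; Cd3g, Ms4a1 and Ncr1 had 0 counts in all libraries, and the summed FPKM of the list was 0.520 to 0.825 in WT and 0.468 to 1.11 in the KO-labelled libraries.

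Cbfb was slightly lower in every KO-labelled library. It was at 33.0, 34.2 and 32.5 FPKM in WT replicates 1 to 3 and at 28.75, 27.5 and 32.02 FPKM in the KO-labelled libraries. The groups did not overlap, although replicate 3 labelled eIF5A-KO lay close to the WT libraries. Mean levels were 117 ± 3.27 CPM in WT (SD, n = 3) and 103 ± 8.10 CPM under the KO label (SD, n = 3), a fitted ratio of 0.881, from 1623 to 2270 reads per library. In edgeR the log2 fold change was -0.18 with a standard error of 0.15, a 95% confidence interval from -0.53 to 0.16 and an adjusted p of 0.910, which does not pass the threshold. In FPKM, the exact two-sided permutation test of the means gave p = 0.1, the smallest p that 3 libraries against 3 allow. With counts divided by library size alone, the groups overlapped (108 to 128.0 CPM in WT and 92.6 to 116 CPM in the KO-labelled libraries). Cbfb also differed from Runx1 in its WT libraries, where the highest was 1.06 times the lowest, a ratio that 97.0% of 3379 tested genes of like level reached.

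Of the 4 members, 3 were tested, and 0 had an adjusted p under 0.05 in edgeR or in any of 17 alternative settings; over all tested genes the share with an adjusted p under 0.05 was 0.0204% (0.00681% higher and 0.0136% lower). An unadjusted p under 0.05 was likewise found for 0 of the 3 in edgeR and DESeq2, against 6.76% of all genes in edgeR. Of the 3 tested members, 1 was lower with no overlap between the groups, as were 6.83% of all tested genes, and 0 were higher without overlap, as were 5.68% (12.5% in either direction). A fold over 2 with an unadjusted p under 0.05, the cutoff named in the study's methods, was met by 0 of the 3 and by 1.69% of all genes.

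**Figure D2:**
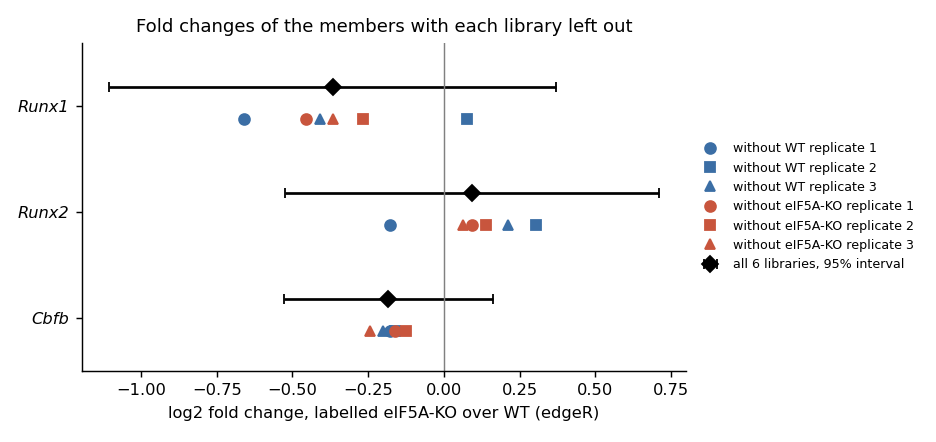
Log2 fold changes of Runx1, Runx2 and Cbfb, KO-labelled libraries over WT, from edgeR with all 6 libraries (black diamonds, 95% confidence intervals) and with each library left out (colored symbols). Runx1 ranges from -0.66 to 0.08, Runx2 from -0.18 to 0.30 and Cbfb from -0.24 to -0.13, and each interval includes 0.

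Since the RUNX proteins share a partner and a DNA sequence, the composition of the Runx transcripts was compared next. Shares within a library do not depend on how libraries are scaled, but they do depend on the gene lengths used. Runx1 made up 60.2%, 66.0% and 57.0% of the summed Runx FPKM in WT replicates 1 to 3 and 56.5%, 51.6% and 53.0% in the KO-labelled libraries. The groups did not overlap, but the lowest WT share and the highest share labelled eIF5A-KO were 57.0% and 56.5%. The mean share was 61.1% ± 4.51 (SD, n = 3) in WT and 53.7% ± 2.52 (SD, n = 3) in the KO-labelled libraries, a difference of -7.35 percentage points with p = 0.1 in an exact two-sided permutation test, the smallest this design allows. It ranged from -9.35 to -4.91 points with single libraries left out.

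Runx2 made up the larger part of what remained. Its share was 39.1%, 33.3% and 42.7% in WT replicates 1 to 3 and 42.2%, 47.1% and 46.1% in the KO-labelled libraries, where the groups overlapped (exact permutation p = 0.2). The Runx3 share was 0.584% ± 0.287 (SD, n = 3) in WT and 1.16% ± 0.181 (SD, n = 3) in the KO-labelled libraries, without overlap (exact permutation p = 0.1), but it rests on between 2 and 9 Runx3 reads per library. The summed Runx level was 4.94, 13.0 and 9.24 FPKM in WT and 8.71, 7.33 and 8.27 FPKM in the KO-labelled libraries, and all 3 of the latter lay within the WT range (exact permutation p = 0.7).

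Cbfb exceeded the 3 Runx transcripts together in FPKM in every library, by 2.63 to 6.67 times in WT and by 3.301 to 3.87 times in the KO-labelled libraries. These ratios also rest on the gene lengths used. The mean ratio of summed Runx to Cbfb was 0.271 ± 0.115 (SD, n = 3) in WT and 0.276 ± 0.0237 (SD, n = 3) in the KO-labelled libraries, with an exact permutation p of 1.0. WT replicates 1 and 2 had the lowest and the highest ratio, 0.150 and 0.380.

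**Figure D3:**
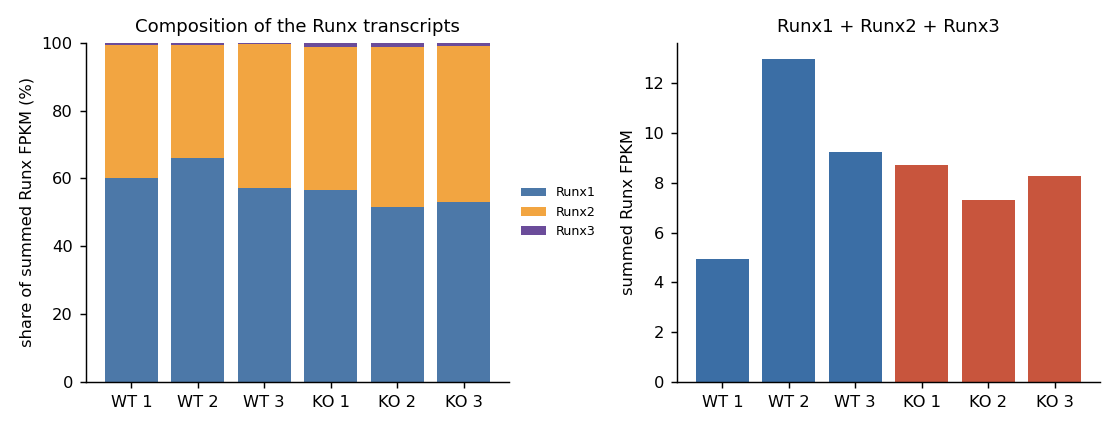
Left, share of Runx1, Runx2 and Runx3 in their summed FPKM in each library (percent). Right, the summed FPKM itself, colored by genotype label (KO, labelled eIF5A-KO). Runx1 takes 57.0% to 66.0% in WT and 51.6% to 56.5% in the KO-labelled libraries, while the sum is lowest in WT replicate 1 and highest in WT replicate 2.

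Runx1 and Runx2 varied together across libraries. On the log2 CPM scale, Pearson's r between them was 0.80 over 6 libraries (exact permutation p = 0.00833, adjusted over 3 pairs of members p = 0.025) and Spearman's rho was 0.94 (exact permutation p = 0.0167, adjusted p = 0.05001). Without WT replicates 1 and 2, the libraries farthest from the median of Runx1, r was 0.85 over 4 libraries. Cbfb followed neither gene as closely: r was 0.36 with Runx1 (exact permutation p = 0.486, adjusted p = 0.729) and -0.09 with Runx2 (exact permutation p = 0.919, adjusted p = 0.919), and rho was 0.37 and 0.43 (exact permutation p = 0.497 and 0.419, adjusted p = 0.497 for both). Without the same libraries, r was 0.63 with Runx1 and 0.95 with Runx2. With 3 libraries per label, no relation was computed within a label. Other genes followed a member more closely, such as Erfe with Runx1 (r = 0.996) and Taf4 with Runx2 (r = 0.999). How many genes reach 0.80 with Runx1 was not counted, so whether the value is particular to this pair was not tested.

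**Figure D4:**
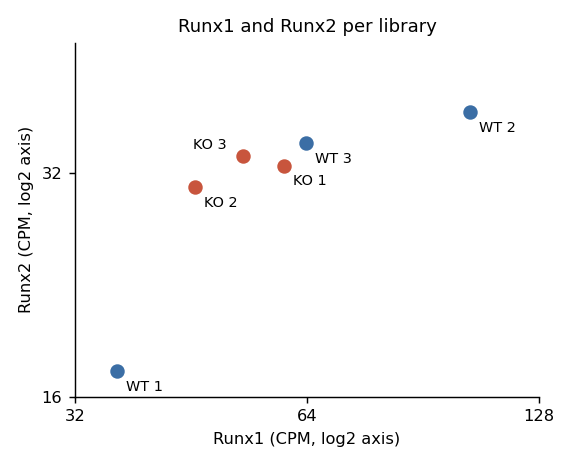
Runx1 against Runx2 in CPM, both on log2 axes, 1 point per library, colored by genotype label (KO, labelled eIF5A-KO). WT replicate 1 is lowest and WT replicate 2 highest for both genes.

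The genes with the pattern most like each member were read off as a description, by Pearson's r of log2 CPM over the 6 libraries among 11037 other genes with a mean of at least 5 CPM. For Runx1 they were Erfe, the hormone erythroferrone (0.996), Osbpl11, an oxysterol-binding protein (0.993), and Ulk2, a kinase of autophagy initiation (0.993). Erfe was at 3.17, 12.4 and 6.02 CPM in WT replicates 1 to 3 and at 5.996, 3.91 and 4.99 CPM in the KO-labelled libraries, the same order of libraries as Runx1. For Runx2 they were Taf4, a subunit of TFIID (0.999), Mbd6, a methyl-CpG-binding domain protein (0.999), and Nfkb2, the NF-κB subunit p100/p52 (0.9975). Taf4 was at 15.6, 39.8 and 34.4 CPM in WT and at 31.6, 29.96 and 33.05 CPM in the KO-labelled libraries, and WT replicate 1 was the low library as for Runx2. For Cbfb they were Pias2, a SUMO ligase (0.993), Lancl2 (0.983) and Mybl1, a MYB family factor (0.978). These were the highest values of all genes compared, over few libraries whose depth and scaling all genes share.

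Reads of neighboring genes could add to the counts of the members, since the library kit named does not mark strand and no strand setting is given. Inside the Runx2 gene, Runx2os1 is transcribed from the opposite strand and shares 519 exon bases with it. It had 6 to 21 reads per library. Supt3, which overlaps Runx2 on the other strand and encodes a SAGA subunit, shares 0 exon bases with it. It was at 12.6, 11.7 and 17.0 CPM in WT and at 14.3, 14.1 and 17.9 CPM in the KO-labelled libraries (log2 fold change 0.16, adjusted p = 0.947 in edgeR), and its log2 fold change ranged from 0.0449 without KO-labelled replicate 3 to 0.34 without WT replicate 3. The part of these genes in the Runx2 counts was not tested. Gm26626, opposite Runx1, shares 106 exon bases and had at most 3 reads. No transcript of a gene elsewhere in the genome aligned to a member over at least 100 bases at 90% identity, the other members included.

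Around the members, lists of known cofactors, partners, targets and upstream signals were examined, and 0 genes of these 8 lists had an adjusted p under 0.05 in edgeR. The median log2 fold change of all tested genes was -0.01. The median of each list changed sign with at least 1 library left out, so that none of the medians below has a stable direction. Corepressors stayed close to it, with a median of 0.04 (10 of 17 above 0, 7 below; -0.11 to 0.17 with single libraries left out, and -0.02 with library size alone). They include the Groucho factors Tle1 to Tle4, which RUNX proteins recruit through their C-terminal motif and which ranged from 0.02 to 0.16, and the ETO family members Runx1t1 (0.31), Cbfa2t3 (0.25) and Cbfa2t2 (-0.23). Suv39h1, a histone H3 lysine methyltransferase, had the lowest p of the list, with 34.7, 30.8 and 37.2 CPM in WT and 28.8, 28.8 and 21.0 CPM in the KO-labelled libraries (log2 fold change -0.38, adjusted p = 0.799 in edgeR; -0.25 without KO-labelled replicate 3). The log2 fold change of Hdac6, a cytoplasmic deacetylase, was -0.30, with an adjusted p of 0.907 in edgeR, and -0.11 without WT replicate 2, where Cbfa2t2 was at -0.12.

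Coactivators had a median of -0.12 (4 of 11 above 0; -0.32 to 0.21 with single libraries left out). The acetyltransferases Ep300 and Crebbp had log2 fold changes of 0.01 each, Yap1 of -0.02 and its relative Wwtr1, known as TAZ, of 0.14. Smad5, a BMP-regulated SMAD, had a log2 fold change of -0.31 and Kat2b, another acetyltransferase, of -0.29 (adjusted p = 0.863 and 0.873 in edgeR). Leaving out single libraries moved Smad5 to -0.17 (WT replicate 2), Kat2b to -0.43 (KO-labelled replicate 3) and Wwtr1 to 0.0430 (WT replicate 1) or 0.23 (WT replicate 2). Among 11 modifying enzymes the median was -0.03 (-0.12 to 0.09 with single libraries left out). Cdk6, a G1 kinase that also binds Runx1, was at 20.8, 42.5 and 28.0 CPM in WT and at 18.7, 15.99 and 21.4 CPM in the KO-labelled libraries (log2 fold change -0.70, unadjusted p = 0.0257 and adjusted p = 0.639 in edgeR), and the log2 fold change was -0.38 with an unadjusted p of 0.114 without WT replicate 2. Its groups overlapped, and it shared with Runx1 the highest value in WT replicate 2. The kinases Src and Pim1 had log2 fold changes of 0.25 and 0.18 (adjusted p = 0.913 and 0.939 in edgeR). Src ranged from 0.0540 without WT replicate 1 to 0.40 without WT replicate 2, and Pim1 from -0.0164 without KO-labelled replicate 1 to 0.35 without KO-labelled replicate 3.

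Transcription factors that bind beside RUNX proteins were more often above 0 than below (17 of 22 tested, median 0.16), but without WT replicate 1 the count was 8 of 23 and the median -0.03. Cebpb, a partner of RUNX proteins in myeloid and bone cells, was at 261, 280 and 280 CPM in WT and at 564, 390 and 331 CPM in the KO-labelled libraries (log2 fold change 0.64, unadjusted p = 0.0155 and adjusted p = 0.557 in edgeR). The groups did not overlap. Without KO-labelled replicate 1 the log2 fold change was 0.40, with an unadjusted p of 0.0778. Jund, an AP-1 subunit, was also without overlap, at 52.7, 91.0 and 95.7 CPM against 161, 99.2 and 98.7 CPM (log2 fold change 0.58, adjusted p = 0.791 in edgeR; 0.32 without KO-labelled replicate 1 and 0.36 without WT replicate 1). Myod1 went the other way, at 264, 550 and 437 CPM in WT and at 350, 273 and 196 CPM in the KO-labelled libraries (log2 fold change -0.61, unadjusted p = 0.0688 and adjusted p = 0.794 in edgeR), with overlapping groups. Its log2 fold change was -0.36 without WT replicate 2, with an unadjusted p of 0.232, and -0.85 without WT replicate 1, with an unadjusted p of 0.0042. The ETS factors Ets1 and Fli1 had log2 fold changes of 0.02 and 0.16, and Tead4, a TEAD factor of myogenic cells, of -0.53.

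The BMP pathway, which induces Runx2 in bone precursors, held 4 of 17 tested genes with an unadjusted p under 0.05, 3 higher and 1 lower, where 2.74% and 4.02% of all genes were. Its median was 0.13, and -0.04 without replicate 1 labelled eIF5A-KO. Bmp4, a ligand, was at 12.9, 13.3 and 13.5 CPM in WT and at 20.8, 17.0 and 20.5 CPM in the KO-labelled libraries (log2 fold change 0.55, adjusted p = 0.520 in edgeR), and the groups did not overlap. Grem1, a secreted BMP antagonist, was at 11.0, 5.30 and 6.32 CPM against 24.0, 16.8 and 14.5 CPM (log2 fold change 1.28, adjusted p = 0.397 in edgeR). Bmp7, another ligand, had a log2 fold change of 0.87 from a mean of 2.39 CPM in WT. Id2, an inhibitor of bHLH factors and a BMP target, was the one that was lower, at 113, 131 and 115 CPM against 77.6, 62.5 and 72.3 CPM (log2 fold change -0.75, adjusted p = 0.362 in edgeR). Id1 and Id3, also BMP targets, had log2 fold changes of 0.13 and 0.17. With DESeq2, Id2 and Grem1 had adjusted p-values of 0.0220 and 0.0199, but Id2 did not pass in the other 16 alternatives, nor Grem1 in 14 of 17.

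Of the genes known as RUNX targets, 9 skeletal ones were tested and 6 were above 0 (median 0.12). With single libraries left out the median ranged from -0.03 (4 of 9 above 0, without WT replicate 3) to 0.57 (7 of 9, without WT replicate 1), and with limma-voom or a replicate block it was 0.28 (8 of 9). The other 8 of the list, Sp7, Bglap and Ibsp among them, did not pass the filter. An unadjusted p under 0.05 was found for 3 that were higher, Col1a1, Col1a2 and Alpl, and for 1 that was lower, Dmp1, where 2.74% and 4.02% of all genes were. Col1a1 and Col1a2, the chains of type I collagen and also fibroblast genes, had log2 fold changes of 0.72 and 0.71 (adjusted p = 0.504 and 0.495 in edgeR), without overlap between the groups. Col1a1 is also one of the 10 fibro-adipogenic markers, of which 4 were above 0 (Col1a1, Gsn, Mfap5 and Pi16; median -0.12) and 7 without WT replicate 1 (median 0.23). Their summed FPKM, Col1a1 included, was 853 to 1205 in WT and 924 to 1090 in the KO-labelled libraries. Of 10 mural markers, 10 were above 0 (8 without WT replicate 1 or KO-labelled replicate 3), with sums of 107 to 188 FPKM in WT and 184 to 222 FPKM in the KO-labelled libraries. Their part in the collagen values was not tested. One of the mural markers, the smooth muscle myosin Myh11, passed the threshold: it rose from 10.5, 11.0 and 10.5 CPM in WT to 29.25, 28.3 and 34.2 CPM in the KO-labelled libraries (log2 fold change 1.51, adjusted p = 0.0486 in edgeR), a call that is lost in the settings where 0 genes passed, limma-voom and library size alone among them. Alpl was at 15.7, 15.7 and 15.4 CPM in WT and at 15.5, 23.5 and 30.2 CPM in the KO-labelled libraries, with overlapping groups (log2 fold change 0.56, unadjusted p = 0.0445 and adjusted p = 0.718 in edgeR). Spp1, osteopontin, was the most abundant gene of the list, with means of 3614 CPM in WT and 5666 CPM under the KO label (log2 fold change 0.65, adjusted p = 0.847 in edgeR).

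Dmp1, a matrix protein of osteocytes, went the other way. It was at 3.49, 14.1 and 6.02 CPM in WT and at 0.857, 0.711 and 1.19 CPM in the KO-labelled libraries (log2 fold change -2.95, standard error 0.51, unadjusted p = 0.000218 and adjusted p = 0.197 in edgeR). Its groups did not overlap. Dmp1 was lower in all 17 alternatives, but in 13 of them it did not pass the threshold, with adjusted p-values from 0.181 to 0.754, among them limma-voom (0.391) and the fits without any single library other than WT replicate 1. It passed with DESeq2 (1.99e-06), without an expression filter (1.06e-13), with a replicate block (0.0124) and without WT replicate 1 (0.00745).

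**Figure D5:**
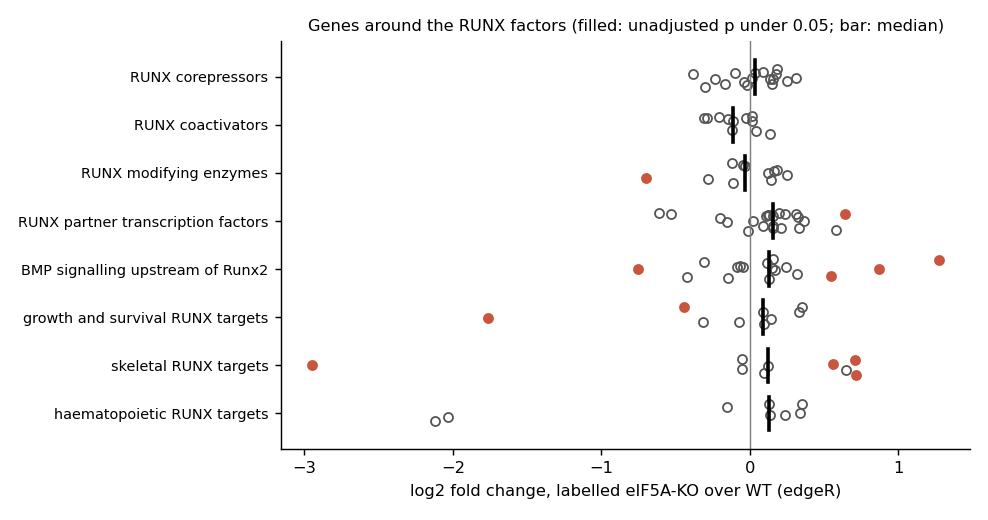
Log2 fold changes, KO-labelled libraries over WT, of the tested genes of 8 lists around the RUNX factors (open circles; filled, unadjusted p under 0.05 in edgeR; bars, list medians; vertical scatter is for legibility). Medians lie between -0.12 and 0.16. Dmp1 at -2.95, Elane at -2.12, Mpo at -2.03 and Cdkn2a at -1.77 lie far to the left of the other genes of their lists.

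Growth and survival targets had a median of 0.09 (5 of 9 above 0; -0.13 without WT replicate 1). Cdkn2a, which encodes the cell cycle inhibitors p16 and p19, was at 3.75, 4.51 and 3.49 CPM in WT and at 1.53, 1.01 and 0.680 CPM in the KO-labelled libraries (log2 fold change -1.77, standard error 0.34, adjusted p = 0.289 in edgeR), without overlap. It passed the threshold with DESeq2 (adjusted p = 0.00407) and without a filter, and in 15 of 17 alternatives it did not. Tgfbr1, the type I TGFβ receptor, was also lower without overlap (log2 fold change -0.44, unadjusted p = 0.0442 and adjusted p = 0.715 in edgeR), with an unadjusted p of up to 0.174 with single libraries left out. Cdkn1a, another cell cycle inhibitor, had a log2 fold change of 0.33 with overlapping groups, and of 0.20 without WT replicate 1.

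Hematopoietic targets were mostly too low to test, since 8 of 17 passed the filter (5 above 0, median 0.13). The median was -0.14 without KO-labelled replicate 1 (2 of 8 above 0) and 0.40 without WT replicate 2 (8 of 8). Mpo and Elane, granule genes of myeloid precursors, were at 14.5 and 16.8 CPM in WT replicate 2 and at no more than 1.81 and 2.44 CPM in the other libraries. Their log2 fold changes were -2.03 and -2.12 (adjusted p = 0.820 and 0.860 in edgeR), and both were above 0 without WT replicate 2, at 0.50 and 0.77. Without an expression filter both passed the threshold in edgeR (adjusted p = 6.87e-06 and 9.16e-07), and in no other alternative that gave an adjusted p did either pass. This is also the library with the highest Runx1 level, and the part of myeloid precursors in that level was not tested. Zbtb7b, the helper T cell factor ThPOK, was at 49.0, 56.1 and 49.4 CPM in WT and at 59.96, 65.8 and 56.3 CPM in the KO-labelled libraries, without overlap (log2 fold change 0.24, adjusted p = 0.877 in edgeR).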

How the data were processed

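RNA-seq libraries of myoblasts were used. The authors mapped reads to mm10 with HISAT and deposited raw read counts per gene; the methods name DEGSeq2 for coverage, and the HISAT version, annotation and strand setting are not given in the sources used here. The deposited FPKM values of the authors were checked against the counts: their denominators equalled median-of-ratios size factors multiplied by the geometric mean of the library totals.

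Counts were tested with edgeR 4.0.16 in R 4.3.3 (filterByExpr, TMM factors, quasi-likelihood F test, prior count 2, no covariate), with Benjamini-Hochberg adjustment over 14679 of 54532 genes and a threshold of 0.05, after a run on simulated data. Levels and shares in FPKM were compared by exact two-sided permutation tests. Copies were searched with blastn 2.17.0. Members and gene lists were chosen with earlier results of these data known. Named were the members, Eif5a, the 3 genes with the lowest p in each list (for marker lists, mostly counts and sums are printed in their place; others, among them Spp1, Col2a1, Tle1 to Tle4, Runx1t1, Cbfa2t3, Ep300, Crebbp, Yap1, Ets1, Fli1, Tead4, Bmp7, Id1 and Id3, were added after their values were seen) and the 3 genes most correlated with each member. Alternatives were other scaling, filters, DESeq2 1.42.0, limma 3.58.1, a replicate block and each library left out. Total counts of 16281216 to 17734551 set the depth, and reads carry no molecular identifiers.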

Additional observations from a re-analysis of the deposited data

How the results depend on the processing

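Runx1, Runx2 and Cbfb had adjusted p-values above 0.05 in all 17 alternatives each, from 0.314 upward. Cbfb was lower throughout (-0.24 to -0.13). Runx1 was lower except without WT replicate 2 (0.0756), and Runx2 was higher except without WT replicate 1 (-0.18); with single libraries left out they ranged from -0.66 to 0.0756 and from -0.18 to 0.30, and the libraries that decide each sign are the lowest and the highest in the WT group. The difference in summed Runx FPKM, -0.956, turned to 1.01 without WT replicate 2 and ranged from -3.01. That in the ratio to Cbfb, 0.00468, turned to -0.0561 where WT replicate 1 was left out and to -0.00877 where KO-labelled replicate 1 was, with 0.0588 as its highest value. Differences in the Runx1, Runx2 and Runx3 shares kept their sign in the 6 fits that left out a library; other scalings cannot move a share.

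The deviations of same-numbered libraries from the group means correlated at 0.135, -0.290 and 0.129, and those of differently numbered ones at -0.361 to 0.408. With 3 libraries per label, these correlations cannot decide whether the libraries were paired. With a replicate block, the log2 fold changes were -0.25 for Runx1, 0.17 for Runx2 and -0.19 for Cbfb, and 24 genes were called in place of 3. The 3 calls became 0 in edgeR with DESeq2's size factors (992 genes at an unadjusted p under 0.05), with library size alone (966) and with a filter of 10 counts in each library (907). Limma also gave 0, by voom (961) and on log2 FPKM with a pseudocount of 1 (980) or 0.1 (980). DESeq2 called 92, edgeR without a filter 249, and fits with a library left out from 0 to 56, the latter without WT replicate 1; the cause was not tested. With single libraries left out, Eif5a ranged from -0.13 to 0.23 (below 0 without WT replicate 2, KO-labelled replicate 1 or KO-labelled replicate 2), Pim1 from -0.0164 (without KO-labelled replicate 1) to 0.35, Mpo from -2.58 to 0.50 and Elane from -2.85 to 0.77 (both above 0 without WT replicate 2). The few reads limit Runx3, and 3 libraries per label limit every exact test between the labels to p = 0.1 or above.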
